A study of Mus musculus with 20 samples.

Results

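The T cell genes described here are Cd3d, Cd3e, Cd3g, Cd4, Cd8a, Cd8b1, Lck, Foxp3, Ctla4 and Il2rb, 10 genes listed by their roles in T cells, a list drawn up with earlier results of these data known. A probe set was taken where its symbol in the platform annotation was that of a listed gene, and 8 of the 10 had 1 probe set each among the 22206 on the array (19505 genes named). Lck and Foxp3 were not analysed here. RNA came from the whole epididymal fat pad of 20 male mice, labelled as littermates, on a C57BL/6 background, aged 28 weeks, that ate chow up to week 10 and then, for 18 weeks, a diet with 40% of its calories from fat. Both genotypes carried floxed Tnf (TNF-αFlox/FLox), so the cre mice (LyzMcre+/-, n = 10) and the wt mice (LyzMcre-/-, n = 10) differed, by their labels, in the recombinase alone. LyzM-Cre acts in macrophages and other myeloid cells, not in T cells, so the Tnf of T cells themselves is not its target. Titles gave 2 batches, each with 5 mice of both genotypes, and did not say which step was batched.

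T cells recognise peptides on other cells through the T cell receptor, whose chains reach the surface only in complex with the CD3 proteins that carry the signal inward. CD4 marks helper and regulatory T cells and CD8 marks cytotoxic T cells, although in mice dendritic cells and other myeloid cells can carry either molecule. In visceral fat of obese mice, CD8 T cells are known to accumulate beside macrophages, and TNF is among the cytokines that both cell types can release.

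The values were log2 signals, so a difference of 1 is a 2-fold change, and a level of a probe set cannot be set against that of another. The targeted gene came first as a check of the labels: Tnf averaged 4.67 ± 0.43 in cre fat pads and 6.66 ± 0.69 in wt fat pads (SD, n = 10 each), a difference of −1.99 (limma, adjusted p = 0.000822). The array medians ranged from 6.49 to 6.58. The adipocyte list lay between 14.7 and 17.3 in every mouse. Some pads showed genes of other organs: cre replicate 3 and wt replicate 6 stood apart from their groups in the seminal vesicle genes (list means 6.89 and 16.8). So did cre replicate 2 in bladder genes (6.57) and wt replicate 4 in liver and exocrine pancreas genes (14.2 and 7.04). Wt replicate 6 also stood apart in epididymis and prostate genes (5.75 and 6.43). A mouse was set apart if it exceeded the next of its genotype by more than 1, so several high mice together were not. The liver list mean was also 12.1 in cre replicate 4 and 11.9 in cre replicate 10, with medians of 9.60 in cre and 7.68 in wt mice. The remaining mice are thus not shown to be free of other tissue. The genotype differences of the T cell genes are also given without the 4 mice set apart.

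Promoters are shown for Cd8a and the 3 CD3 genes, the 4 members most like the mean of the CD3 genes across mice, as context for genes that lie side by side. Cd3g, Cd3d and Cd3e form a cluster on chromosome 9, where Cd3g and Cd3d are read in opposite directions from starts 1337 bases apart and Cd3e lies 11682 bases beyond Cd3d. The 3 genes span chr9:44969572-44980431 (Cd3g), chr9:44981769-44987052 (Cd3d) and chr9:44998735-45009663 (Cd3e). Cd8b1 (chr6:71322788-71337492) and Cd8a (chr6:71373427-71379171) are neighbours, 35934 bases apart. Cd4 lies at chr6:124864693-124888247, Ctla4 at chr1:60909025-60915832 and Il2rb at chr15:78479256-78511621. The sequences end at the gene's annotated start or just upstream of its outermost one, read 5′ to 3′ on the gene's strand, and come from RefSeq on GRCm38 (mm10). Capitals mark matches to 3 short motifs of factors active in T cells, searched on both strands in the 250 bases before each start. The letters for RUNX factors were TGTGGT. Those for the TCF and LEF factors were CTTTGA. Those for GATA factors were AGATAA.
Cd3d, plus strand, chr9:44981536-44981768: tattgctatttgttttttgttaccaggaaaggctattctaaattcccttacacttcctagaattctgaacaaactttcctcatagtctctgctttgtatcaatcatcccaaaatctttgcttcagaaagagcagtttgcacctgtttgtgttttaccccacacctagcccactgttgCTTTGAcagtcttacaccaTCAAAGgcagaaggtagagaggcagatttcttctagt
Cd3e, minus strand, chr9:45009664-45009861: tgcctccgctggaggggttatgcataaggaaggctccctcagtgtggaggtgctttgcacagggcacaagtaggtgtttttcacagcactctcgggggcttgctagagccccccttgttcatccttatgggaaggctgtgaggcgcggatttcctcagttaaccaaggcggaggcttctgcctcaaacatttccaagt
Cd3g, minus strand, chr9:44980432-44980681: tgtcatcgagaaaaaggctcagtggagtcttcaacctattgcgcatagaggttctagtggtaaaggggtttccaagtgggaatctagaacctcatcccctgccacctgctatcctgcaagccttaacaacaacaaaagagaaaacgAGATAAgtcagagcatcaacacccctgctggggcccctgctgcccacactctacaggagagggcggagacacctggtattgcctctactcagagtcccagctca
Cd8a, plus strand, chr6:71373177-71373426: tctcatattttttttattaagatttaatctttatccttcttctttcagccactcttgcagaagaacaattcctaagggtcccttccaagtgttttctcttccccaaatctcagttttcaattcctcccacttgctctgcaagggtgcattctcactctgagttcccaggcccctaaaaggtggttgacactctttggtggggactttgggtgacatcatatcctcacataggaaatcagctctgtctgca
The Cd3d window held 2 TCF/LEF matches, starting 73 and 54 bases before the start on opposite strands, and the Cd3g window held 1 GATA match, 104 bases before the start. The Cd3d distances are counted from the end of the searched window, 17 bases past the end of the printed sequence. The windows of Cd3e and Cd8a, and that of Ctla4 on chromosome 1 (not shown), held none of the 3. Among all 32851 promoter windows of this length, 14.0% held the RUNX letters, 13.8% the TCF/LEF letters and 9.99% the GATA letters. The matches describe the letters alone.

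No T cell gene differed between genotypes past the test. Estimates for 7 of the 8 genes were below 0 and that of Ctla4 was above it, with a median of −0.27 against 0.00337 over all probe sets. After Benjamini-Hochberg adjustment over all probe sets, 0 of 8 passed limma's test (0.0045% of all probe sets did). At an unadjusted p under 0.05, 0 of 8 passed, against 6.29% of all probe sets. The study's own selection, an unadjusted p under 0.05 with at least a 1.5-fold change, took 0 of 8 (1.04% of all). In a whole fat pad, fewer cells of a type and less RNA per cell cannot be told apart.

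Of the CD3 genes, which encode the signalling chains of the receptor complex, Cd3e had the largest estimate. Its signal ran from 5.53 through a median of 5.99 to 7.58 in cre fat pads, and from 5.04 through 6.32 to 9.10 in wt fat pads. The groups overlapped over the whole cre range, and the highest values belonged to wt mice. Cd3e averaged 6.19 ± 0.72 in cre mice and 6.81 ± 1.24 in wt mice (SD, n = 10 each), a difference of −0.63 (95% interval −1.49 to 0.24, limma adjusted p = 0.829). Without the 4 mice that held other tissue it was −1.07, which the study's selection would take (unadjusted p = 0.0163, adjusted p = 0.584). More of all probe sets met that selection in this fit than in the fit of all mice. The 4 include the highest cre mouse for Cd3e (replicate 2) and the lowest wt mouse (replicate 4). Leaving out these extremes moves cre minus wt downward. They also include the lowest cre mouse (replicate 3), and leaving that mouse out moves it upward. Leaving out wt replicate 9 gave −0.35. Cd3d, the delta chain, ran from 5.22 (median 5.84) to 6.73 in cre mice and from 4.78 (median 5.69) to 8.11 in wt mice. Cd3g, the gamma chain, ran from 4.32 (median 5.29) to 6.86 in cre mice and from 3.96 (median 5.15) to 7.64 in wt mice. For both genes the groups overlapped, the median was higher in cre mice and the mean was higher in wt mice, of which replicates 2 and 9 were far above the others. Cd3d averaged 5.89 ± 0.46 in cre and 6.01 ± 1.01 in wt mice, and Cd3g 5.27 ± 0.78 in cre and 5.54 ± 1.32 in wt mice. The differences were −0.12 for Cd3d (−0.79 to 0.56) and −0.27 for Cd3g (−1.20 to 0.65), and the adjusted p-values were 0.958 and 0.927.

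Cd4, the co-receptor of helper T cells, was the steadiest of the 8. It ran from 7.33 (median 8.14) to 8.39 in cre fat pads and from 7.54 (median 8.05) to 8.69 in wt fat pads, with group means of 7.96 ± 0.40 and 8.01 ± 0.35. The difference of −0.05 had a 95% interval of −0.39 to 0.28 (adjusted p = 0.963). Cd8a, a chain of the co-receptor of cytotoxic T cells, ran from 5.24 (median 6.14) to 6.99 in cre mice and from 5.09 (median 6.18) to 8.62 in wt mice. Cd8b1, its partner chain, ran from 5.06 (median 5.86) to 7.57 in cre mice and from 4.98 (median 6.13) to 8.06 in wt mice. Both overlapped almost completely apart from wt replicates 2 and 9, which were above every cre mouse. Cd8a averaged 6.07 ± 0.54 in cre and 6.34 ± 1.28 in wt mice, and Cd8b1 6.04 ± 0.70 in cre and 6.37 ± 0.98 in wt mice. The difference was −0.27 for Cd8a (−1.10 to 0.56, adjusted p = 0.919) and −0.33 for Cd8b1 (−1.06 to 0.40, adjusted p = 0.885). Without the 4 mice with other tissue, Cd8b1 differed by −0.81 (unadjusted p = 0.0266, adjusted p = 0.606), and without wt replicate 9 by −0.13. The 4 mice include the highest cre mouse and the lowest wt mouse for Cd8b1 too.

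Ctla4, an inhibitory receptor of activated and regulatory T cells, was the gene with the positive estimate. Its signal ran from 4.65 (median 5.65) to 6.70 in cre fat pads and from 3.85 (median 4.96) to 6.62 in wt fat pads. Of the cre mice, 8 of 10 were above the wt mean, and the groups still overlapped. The mean was 5.63 ± 0.63 in cre mice and 5.16 ± 0.98 in wt mice, a difference of 0.47 (−0.24 to 1.18, adjusted p = 0.840). It was 0.22 without the 4 mice with other tissue (adjusted p = 0.916). Il2rb encodes a chain shared by the receptors for IL-2 and IL-15, found on T cells and NK cells. It ran from 4.50 (median 5.70) to 6.96 in cre mice and from 4.61 (median 5.58) to 8.56 in wt mice, with overlap except for 2 wt mice above every cre mouse. It averaged 5.80 ± 1.00 in cre and 6.10 ± 1.41 in wt mice, a difference of −0.30 (−1.33 to 0.74, adjusted p = 0.928). The estimates of the other 5 genes without those 4 mice were −0.34 for Cd3d, −0.83 for Cd3g, −0.12 for Cd4, −0.60 for Cd8a and −0.77 for Il2rb, with adjusted p-values from 0.666 to 0.892. In the fit of all 20 mice, all genes had 95% intervals that reach past a 2-fold change in at least 1 direction, except Cd3d and Cd4.

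**Figure D1:**
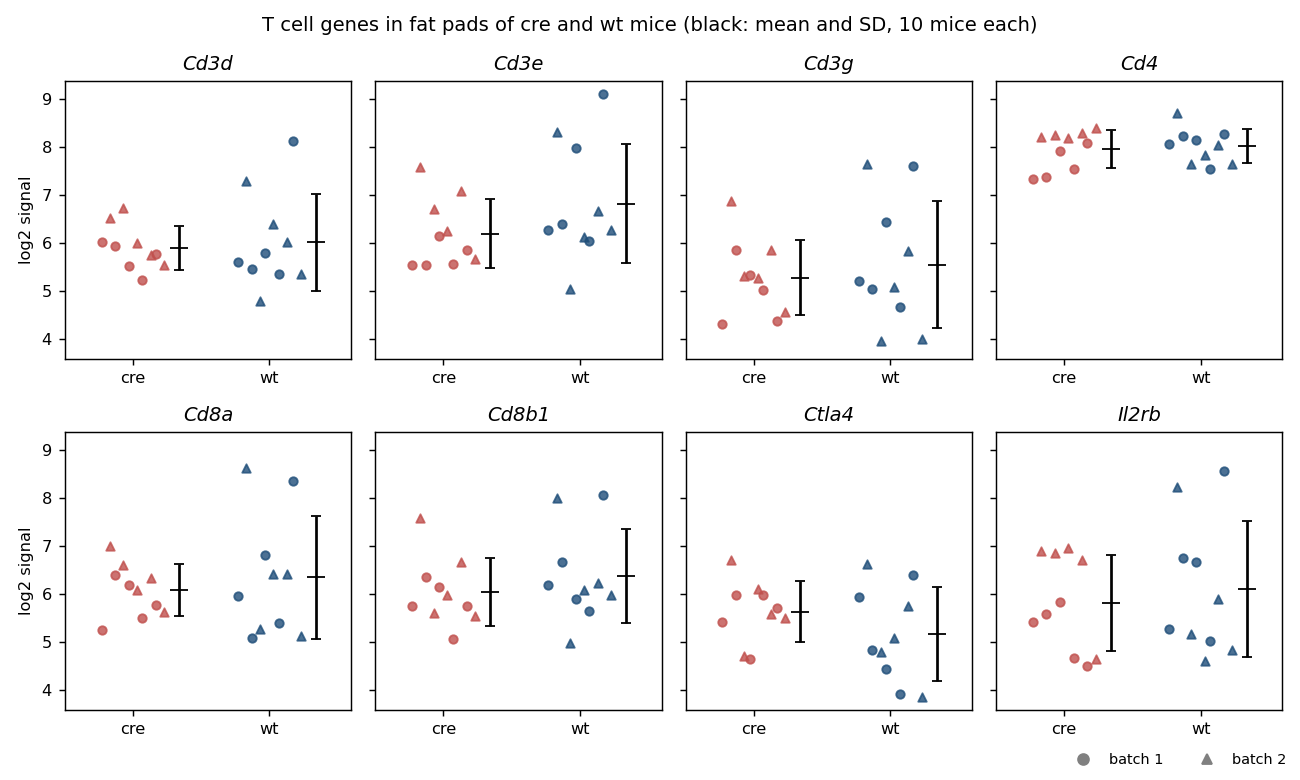
Log2 signal of the 8 measured T cell genes, with a point for each mouse, cre left of wt in each panel, circles for batch 1 and triangles for batch 2. Black bars give the mean and SD of 10 mice. The genotypes overlap in all panels, 2 wt mice are high in nearly all of them, and Cd4 spreads least.

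For each gene the SD among the mice of either genotype exceeded the difference between the genotypes. Wt replicate 2 was among the 3 highest mice for 8 of 8 genes, wt replicate 9 for 7 and cre replicate 2 for 4. Their means over the 3 CD3 genes were 6.98 in cre replicate 2, 7.74 in wt replicate 2 and 8.27 in wt replicate 9, whereas wt replicate 4, one of the mice with other tissue, had the lowest, 4.59. Within genotype and batch, the SD of 7 genes was larger than that of at least 94.8% of all probe sets. Cd4 was the exception, with an SD of 0.31, below the median of 0.383 over all probe sets. Several signals were near the lower end of the scale. As a guide, 18 genes of eye, inner ear, tooth and hypothalamus had mean signals from 3.08 to 5.82. All 20 mice exceeded that upper value for Cd4, and 15 did so for Cd3e, 13 for Cd8b1 and 12 for Cd8a. For Il2rb 10 mice did, for Cd3d 9, and for Cd3g and for Ctla4 7 each.

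With the 3 mice highest in CD3 left out, a choice made after their values were seen, still 0 of 8 genes passed adjustment. The estimates of Cd3d, Cd3g, Cd4, Cd8a and Il2rb then changed sign, to 0.25, 0.06, 0.05, 0.17 and 0.17. That of Ctla4 was 0.69, past the study's selection (unadjusted p = 0.0312) but not past adjustment (adjusted p = 0.932). The probe sets in that selection ranged from 22 to 946 over the alternatives run, against 232 in the fit of all mice. The call of Ctla4 is not set against the count of its own fit. Leaving out wt replicate 9 alone gave 0.14 for Cd3d, 0.01 for Il2rb, −0.03 for Cd3g, −0.02 for Cd8a and −0.0059 for Cd4. The estimates of Cd3e, Cd3g, Cd8a and Cd8b1 stayed below 0 in all 20 fits without a single mouse. Of these 3 mice 2 are wt, and they were chosen for high values, so that leaving them out moves cre minus wt upward by construction. The mice with other tissue include cre replicate 2, the highest cre mouse in the CD3 mean, and wt replicate 4, the lowest of all. They were picked by genes of other organs, not by T cell genes. Leaving out cre replicate 2 and wt replicate 4 still moves cre minus wt of the CD3 mean downward.

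The batches did not show the same picture, although the test of the difference between them did not pass. That test passed for 0 of all 22206 probe sets, so a missing call in it says nothing of these genes. In batch 1, Cd3e differed by −1.43, Il2rb by −1.26, Cd3g by −0.81 and Cd8b1 by −0.68. The same genes in batch 2 gave 0.17, 0.67, 0.27 and 0.02. For Cd4 the batch 1 value was −0.40 and the batch 2 value 0.29, for Cd3d −0.37 and 0.14, for Cd8a −0.50 and −0.04, and for Ctla4 0.44 and 0.50. The interaction of genotype and batch was positive for 8 of 8 genes, with a median of 0.69 against 0.03 over all probe sets, but these genes follow each other across mice and are not separate observations. It was 0.69 for Cd4 (0.08 to 1.30), the only one with an unadjusted p under 0.05 (p = 0.0285, against 7.41% of all probe sets), and limma's adjusted p was 0.663. For Cd3e it was 1.61 (adjusted p = 0.675) and for Il2rb 1.92 (adjusted p = 0.675). In batch 1 taken alone, Cd3e and Il2rb met the study's selection, with adjusted p-values of 0.676 and 0.680. Of all 22206 probe sets, 946 met it there, against 232 in the fit of all mice. Adgre1, the gene of a surface protein of mouse macrophages, had values of −0.67 and 0.12 for the same comparison, and its part in the T cell values by batch was not tested.

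Across mice, the T cell genes were then set against Adgre1, which marks the macrophages that gather in obese fat. Adgre1 ran from 10.7 (median 12.7) to 13.9 in cre fat pads and from 11.4 (median 12.6) to 14.3 in wt fat pads, and did not pass the test between genotypes (difference −0.28, 95% interval −1.06 to 0.51, adjusted p = 0.912). In a limma fit with genotype and batch as terms, the slope on Adgre1 was above 0 for 8 of 8 T cell genes. It was above 0 for 44.7% of all probe sets. The median slope of the 8 genes was 0.53 log2 units per log2 unit, against −0.02 over all probe sets. These genes follow each other across mice and are not separate observations. Of the 8 genes, 4 rose with Adgre1 past adjustment over all probe sets (6.26% of all probe sets did), and 5 of 8 at an unadjusted p under 0.05 (11.9%). The slopes were 0.66 for Cd3e (0.25 to 1.07, adjusted p = 0.0368), 0.69 for Cd3g (0.25 to 1.14, adjusted p = 0.0456), 0.62 for Cd8a (0.22 to 1.02, adjusted p = 0.0478) and 0.77 for Il2rb (0.27 to 1.26, adjusted p = 0.0490). Cd3d had a slope of 0.45 (0.11 to 0.78, unadjusted p = 0.0125, adjusted p = 0.0979) and Cd8b1 one of 0.39 (−0.0048 to 0.78, adjusted p = 0.235). Cd4 and Ctla4 had slopes near 0, of 0.05 (−0.14 to 0.25) and 0.03 (−0.39 to 0.44), with adjusted p-values of 0.809 and 0.957.

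The 4 calls were close to the threshold. In batch 1 alone the slopes were 0.42 for Cd3e, 0.52 for Cd3g, 0.50 for Cd8a and 0.49 for Il2rb, with 0 of 8 T cell genes past adjustment and 3 at an unadjusted p under 0.05. In batch 2 alone they were 1.12, 1.06, 1.00 and 1.25, larger than in all mice, and 6 of 8 genes had an unadjusted p under 0.05. The share of all probe sets at that unadjusted threshold was not counted within the batches, so these counts have no background beside them. No probe set of the array passed adjustment in batch 2 alone, so a lost call there says nothing of these genes. No T cell gene passed in either genotype alone, or without the 3 mice highest in CD3, where Cd3e had a slope of 0.39, Cd3g 0.39, Cd8a 0.34 and Il2rb 0.47. When single mice were left out, 0 genes passed in 6 of 20 fits and 4 in 2 of 20. The 6 fits were those without cre replicate 2 or 10 or wt replicate 2, 4, 5 or 9. The slopes of the 4 genes stayed above 0 in all 20 fits, and Cd3e passed in 13 of them. In cre mice alone the slopes were 0.15 for Cd3e, 0.35 for Cd3g, 0.26 for Cd8a and 0.55 for Il2rb, and in wt mice alone 1.10, 1.01, 1.04 and 0.82. The interaction of slope and genotype passed for 0 of 8 genes (smallest adjusted p = 0.995), with the lowest unadjusted p-values for Cd8a (0.0542) and Cd3e (0.0553). It passed for 0 of all 22205 probe sets, so a missing call there says nothing of these genes.

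As correlations, after the mean of each genotype in each batch was removed, the same 8 relations were tested by permutation of mice within genotype and batch. Cd8a had r = 0.57 (permutation p = 0.00761) and rho = 0.66 (p = 0.003), Cd3e r = 0.57 (p = 0.00809) and rho = 0.57 (p = 0.00981). Cd3g had r = 0.56 (p = 0.01) and rho = 0.61 (p = 0.00668), Il2rb r = 0.54 (p = 0.0142) and rho = 0.54 (p = 0.0196), and Cd3d r = 0.50 (p = 0.0257) and rho = 0.57 (p = 0.00642). Without cre replicates 7 and 9, the mice farthest from the Adgre1 median, r was 0.67 for Cd8a, 0.72 for Cd3e, 0.62 for Cd3g, 0.52 for Il2rb and 0.57 for Cd3d. In batch 1 these genes had r between 0.42 for Cd3d and 0.62 for Cd3g, and in batch 2 between 0.57 for Cd3g and 0.75 for Cd3e. Cd8b1 had r = 0.39 (p = 0.0938) and rho = 0.42 (p = 0.0823), and 0.35 without the 2 farthest mice. Cd4 had r = 0.02 (p = 0.935) and rho = 0.02 (p = 0.956), with −0.55 in cre mice and 0.42 in wt mice. Ctla4 had r = 0.03 (p = 0.916) and rho = 0.10 (p = 0.697). Without the 2 farthest mice r was 0.26 for Cd4 and 0.16 for Ctla4. In batches 1 and 2, r was 0.32 and 0.55 for Cd8b1, −0.21 and 0.43 for Cd4, and −0.03 and 0.12 for Ctla4. The adjusted values of these relations are those of the slopes above.

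**Figure D2:**
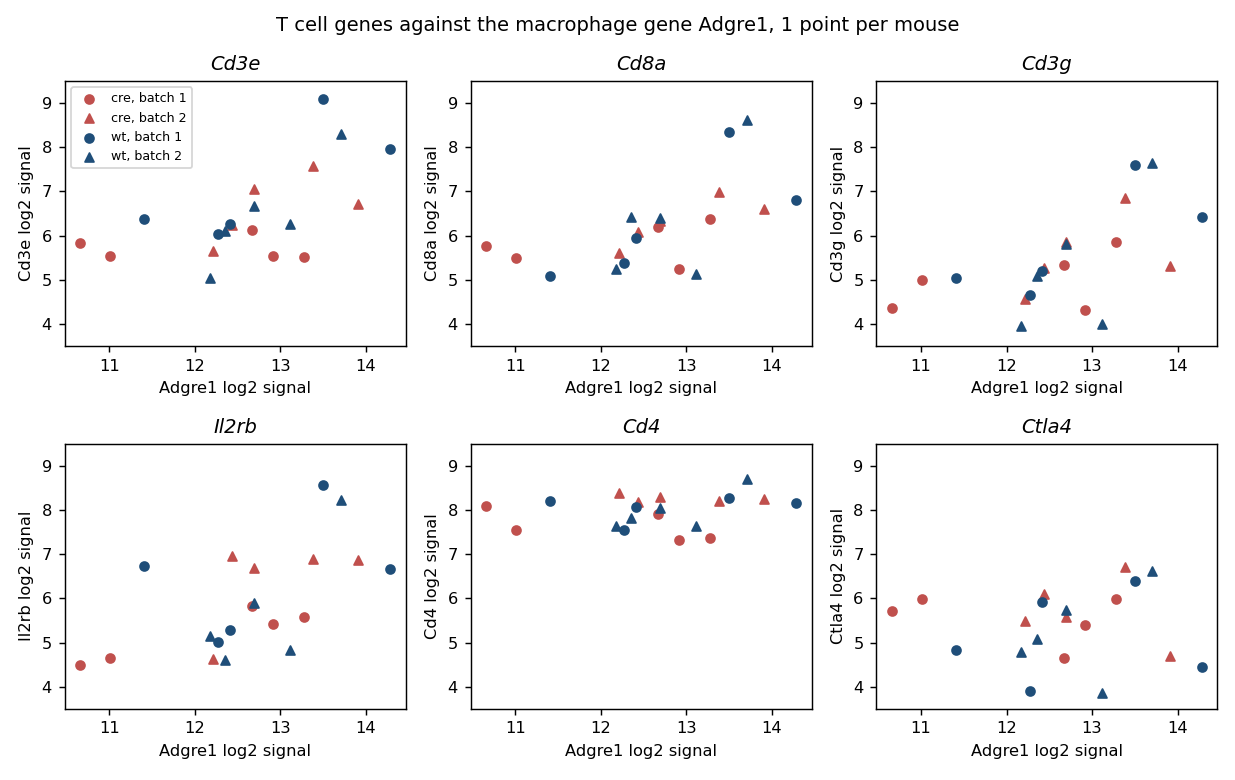
Log2 signal of 6 T cell genes against that of Adgre1, with a point for each of 20 mice, cre in red and wt in blue, circles for batch 1 and triangles for batch 2. Cd3e, Cd8a, Cd3g and Il2rb are highest in mice above 13 on the Adgre1 axis, while Cd4 stays between 7.3 and 8.7 along it and Ctla4 follows no line.

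**Figure D3:**
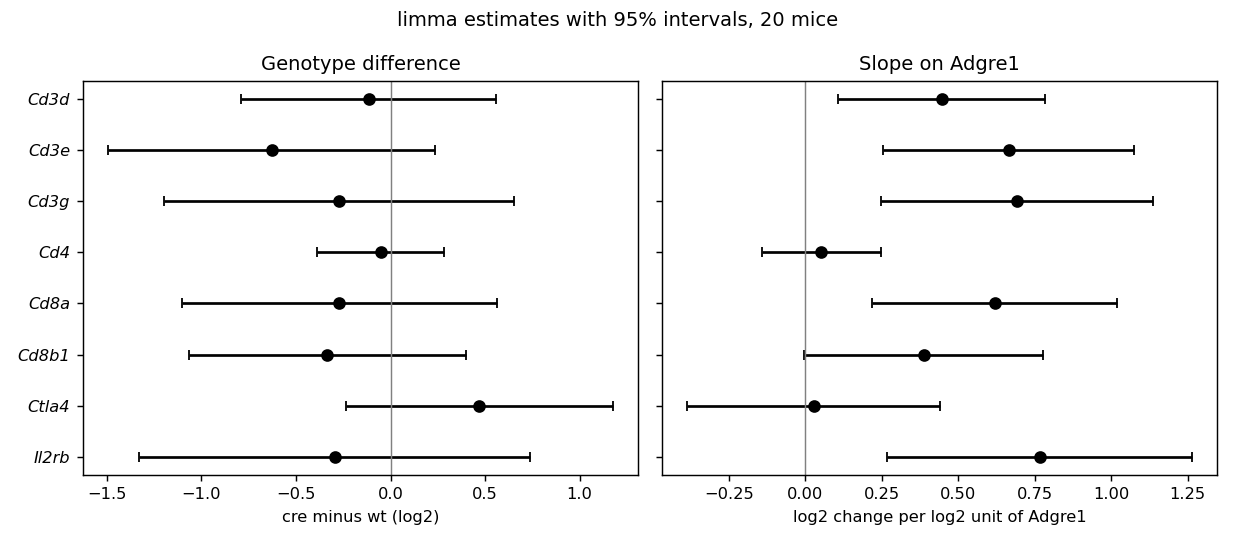
Estimates of limma with 95% intervals for the 8 genes over 20 mice, on the left the difference of cre minus wt and on the right the slope on Adgre1, both in log2 units. All intervals of the genotype difference include 0, and those of the slope lie above 0 for Cd3d, Cd3e, Cd3g, Cd8a and Il2rb.

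When the genotypes were compared at equal Adgre1, the T cell genes still gave 0 of 8 calls, with estimates of −0.45 for Cd3e, −0.23 for Cd8b1, 0.48 for Ctla4 and between −0.10 and 0.01 for the other 5. When they were compared at an equal mean of the 3 CD3 genes, Ctla4 was higher in cre mice by 0.66 (0.06 to 1.25), at an unadjusted p of 0.0316 (5.76% of all probe sets reached 0.05) and an adjusted p of 0.823. This Ctla4 estimate was 0.36 to 0.87 in the batches and when Cd3e stood for CD3, and 0.52 to 0.82 with single mice left out. The other 4 genes differed by −0.06 for Cd8b1, 0.03 for Cd4, 0.07 for Cd8a and 0.10 for Il2rb at equal CD3.

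The T cell genes followed each other across mice. The 28 pairs had r between 0.47 and 0.94 within genotype and batch, with a median of 0.76, and 18 pairs passed on both r and rho after adjustment over the 28 relations. Cd3g and Cd8a were the closest, with r = 0.94 (permutation p = 2e-05, adjusted p = 0.00056) and rho = 0.94 (p = 1e-05, the smallest that the resamples can give). For this pair the batches gave r = 0.94 and 0.95, and r was 0.88 without wt replicates 2 and 9, the mice farthest from the Cd3g median. Cd3e and Cd8a had r = 0.90, and Cd3e and Cd3g r = 0.89. The pairs of Cd4 ranged lower, from 0.47 with Cd3d and with Ctla4 to 0.62 with Cd8a. Without the 3 mice highest in CD3, the median over the pairs was 0.35, the range ran from −0.13 to 0.87, and 26 of 28 were above 0. Cd3g and Cd8a had r = 0.87 and Cd3e and Cd3g r = 0.72 there, whereas Cd8a and Cd8b1, chains of the same co-receptor, had r = 0.32, against 0.78 in all mice.

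**Figure D4:**
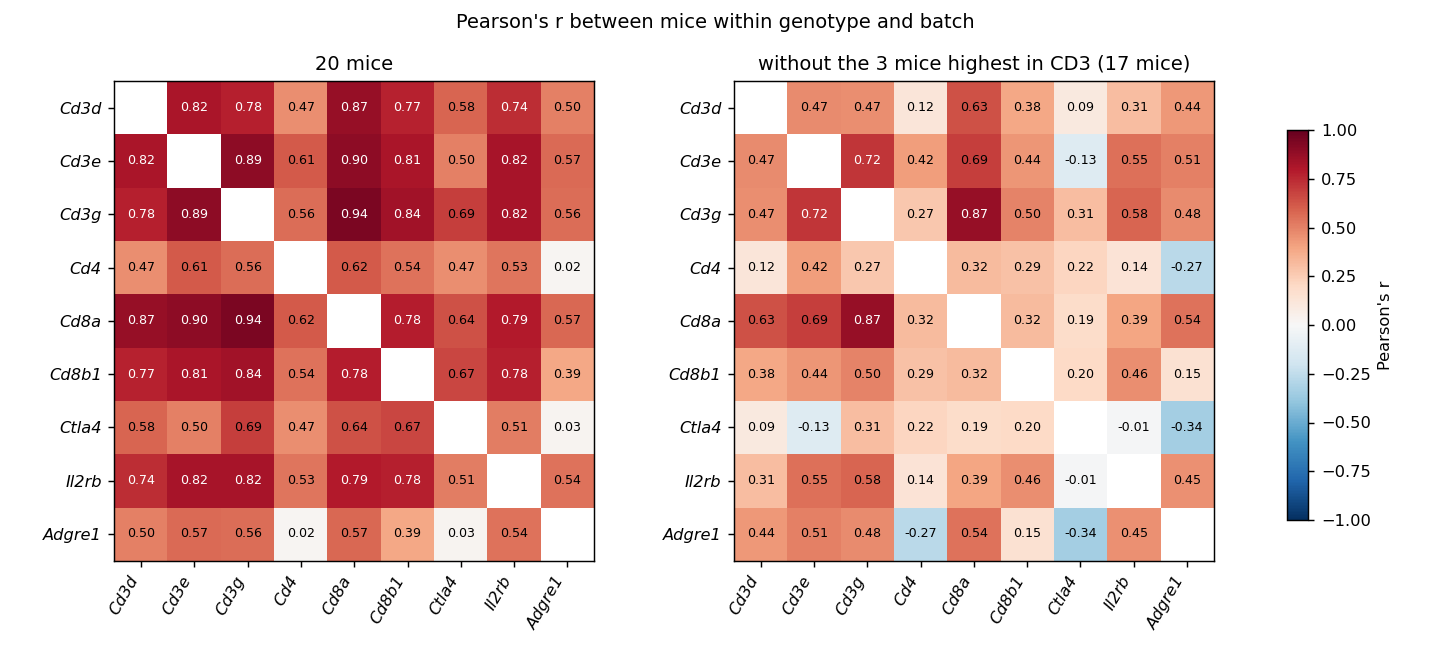
Pearson's r within genotype and batch for each pair of T cell genes and for Adgre1, left in 20 mice and right in 17, without the 3 mice highest in CD3. Red is positive and blue negative. The pair of Cd3g and Cd8a is the deepest red on both sides, and the columns of Ctla4 and Cd4 fade on the right.

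Set against the mean of the 3 CD3 genes, Cd8a ranked first among the 19505 genes, with r = 0.96. Cd3e, Cd3g and Cd3d, which are part of that mean, ranked 2, 3 and 7. Cd8b1 ranked 25 (r = 0.86), Il2rb 34 (0.85), Ctla4 474 (0.63) and Cd4 688 (0.58). Without the 3 mice highest in CD3, r was 0.88 for Cd8a, 0.59 for Il2rb, 0.53 for Cd8b1, 0.33 for Cd4 and 0.12 for Ctla4. The other genes most like CD3 were Ccl5 (r = 0.94), a chemokine released by T and NK cells, Ms4a4b (0.93), a membrane protein of T cells, and Gzmk (0.92), a granzyme. They were followed by Tox (0.90), a nuclear factor of T cell development and exhaustion, Gimap3 (0.90), a GTPase of lymphocytes, and Fgl2 (0.89), made by T cells and macrophages. Aif1 (0.89), a macrophage gene, Nkg7 (0.89), a granule protein of cytotoxic cells, Ms4a4c (0.89) and Itga4 (0.88), an integrin of many leukocytes, completed the 10. These are descriptions over 20 arrays, and without the 3 mice highest in CD3 the values for the 10 lay between 0.63 for Ms4a4c and 0.83 for Ccl5.

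No gene of the further T cell lists differed between genotypes past adjustment. Of 15 other T cell genes, 6 were higher and 9 lower in cre mice, and none reached an unadjusted p under 0.05. The brightest of them, Il7r, the receptor for IL-7, averaged 10.99 ± 1.07 in cre and 11.81 ± 0.85 in wt fat pads, a difference of −0.81 (adjusted p = 0.797). Thy1, a surface protein of T cells that stromal cells carry too, differed by −0.51 and Cd2, an adhesion molecule, by −0.07. Of 16 genes of T cell receptor signalling, 9 were higher and 7 lower, and the adaptor Lcp2 had an unadjusted p under 0.05, at −0.67 (p = 0.0393, adjusted p = 0.785). The median difference was −0.02 for the other T cell genes and 0.02 for receptor signalling.

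Among 10 genes of the IL-2 and IL-15 axis, 2 were higher and 8 lower (median −0.08), with Jak1, the kinase of these receptors, at 0.11, Stat5a, its target, at −0.11 and the survival gene Bcl2 at 0.16. Of 12 genes of the regulatory T cells of visceral fat, 5 were higher and 7 lower (median −0.08). There the transcription factors Ikzf2 and Batf differed by 0.09 and −0.20 and Lrrc32, which presents latent TGF-beta, by −0.11. Of 17 cytotoxic and effector genes, 10 were higher and 7 lower (median 0.03), with Ccl5 at −0.96 (adjusted p = 0.829), the checkpoint receptor Havcr2 at 0.0041 and Nkg7 at −0.57. Of 14 chemokines and receptors that guide T cells, 3 were higher and 11 lower (median −0.09), with the chemokines Cxcl12 at −0.09, Cxcl9 at −0.51 and Cxcl16 at −0.53. Of 11 co-stimulatory and inhibitory ligands, 4 were higher and 7 lower (median −0.09), with Icosl, the ligand of ICOS, at −0.16, Cd48, a ligand of CD2 family receptors, at −0.23 and Cd274, which encodes PD-L1, at 0.20. Over all probe sets 11263 were higher and 10943 lower. The lists share a few genes.

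Against Adgre1, 4 of the 15 other T cell genes rose past adjustment: Il7r with a slope of 0.88 (adjusted p = 8.41e-05), Cd28, the main co-stimulatory receptor, with 0.49 (adjusted p = 0.00344), Thy1 with 0.44 (adjusted p = 0.0269) and Themis, a signalling protein of thymocytes, with 0.54 (adjusted p = 0.0382). Cd28 and Themis were picked for this result. Over all probe sets 6.26% rose past adjustment. Receptor signalling had 7 of 16, chemokines and receptors 3 of 14, ligands 3 of 11, cytotoxic and effector genes 2 of 17, and the IL-2 and IL-15 axis and the visceral fat regulatory T cell list 0 of 10 and 0 of 12. Several of these genes, such as Ptprc, Lcp2 and Vav1, are active in myeloid cells as well. Of the macrophage list, 14 of 15 rose with Adgre1 past adjustment.

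Cd3e was also set against the means of 6 cell type lists from mouse to mouse. Plasma cells, macrophages, B cells and dendritic cells passed adjustment on r and rho, and NK cells on neither. For plasma cells, which secrete antibody, r was 0.88 (permutation p = 6e-05, adjusted p = 0.00036) and rho 0.81 (p = 0.00013). It was 0.88 in each batch, 0.75 without wt replicates 2 and 9, the mice farthest from the Cd3e median, and 0.69 without the 3 mice highest in CD3. Within this list, Jchain (r = 0.87 with the CD3 mean), Mzb1 (0.85) and Prdm1 (0.69) were above 0.5, the other 5 genes lay between −0.06 for Sdc1 and 0.47 for Irf4, and the list median was 0.37. Jchain, the joining chain of antibodies, also varied most, with an SD of 2.44 in cre and 3.39 in wt mice. For macrophages r was 0.64 (p = 0.00071, adjusted p = 0.00213) and rho 0.63 (p = 0.00236), with 0.53 in batch 1, 0.96 in batch 2 and 0.55 without the 2 farthest mice. For B cells r was 0.77 (p = 0.00192, adjusted p = 0.00384) and rho 0.60 (p = 0.0187), but 0.49 without the 2 farthest mice and 0.30 without the 3, with 0.84 and 0.73 in the batches. For dendritic cells r was 0.62 (p = 0.0259, adjusted p = 0.0388) and rho 0.58 (p = 0.0174), with 0.34 without the 2 farthest mice and 0.69 and 0.56 in the batches. Without the 3 mice highest in CD3 it was 0.31. Of the 11 dendritic cell genes, Clec9a, Itgax and Irf8 alone had r above 0.5 with the CD3 mean. The list median was 0.25, and Cd209a had the lowest value, −0.31. For NK cells r was 0.50 (p = 0.0437, adjusted p = 0.0524) and rho 0.43 (p = 0.0894), with 0.28 without the 2 farthest mice and 0.57 and 0.47 in the batches. Without the 3 mice highest in CD3 it was 0.29. Above 0.5 with the CD3 mean were 5 of 9 B cell genes and 12 of 15 macrophage genes. Of 8 NK cell genes 2 were, and of all 19505 genes 1294. For adipocytes r was −0.31 (p = 0.291, adjusted p = 0.291) and rho −0.56 (p = 0.0273, adjusted p = 0.0327), with −0.51 without the 2 farthest mice and −0.53 and −0.14 in the batches. Within the genotypes, r was 0.33 in cre and 0.94 in wt mice for macrophages, 0.20 in cre and 0.70 in wt mice for dendritic cells, and −0.02 in cre and 0.78 in wt mice for NK cells. It was 0.86 in cre and 0.91 in wt mice for plasma cells, 0.67 in cre and 0.85 in wt mice for B cells, and −0.40 in cre and −0.30 in wt mice for adipocytes. The differences between genotypes in these r values were not tested.

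**Figure D5:**
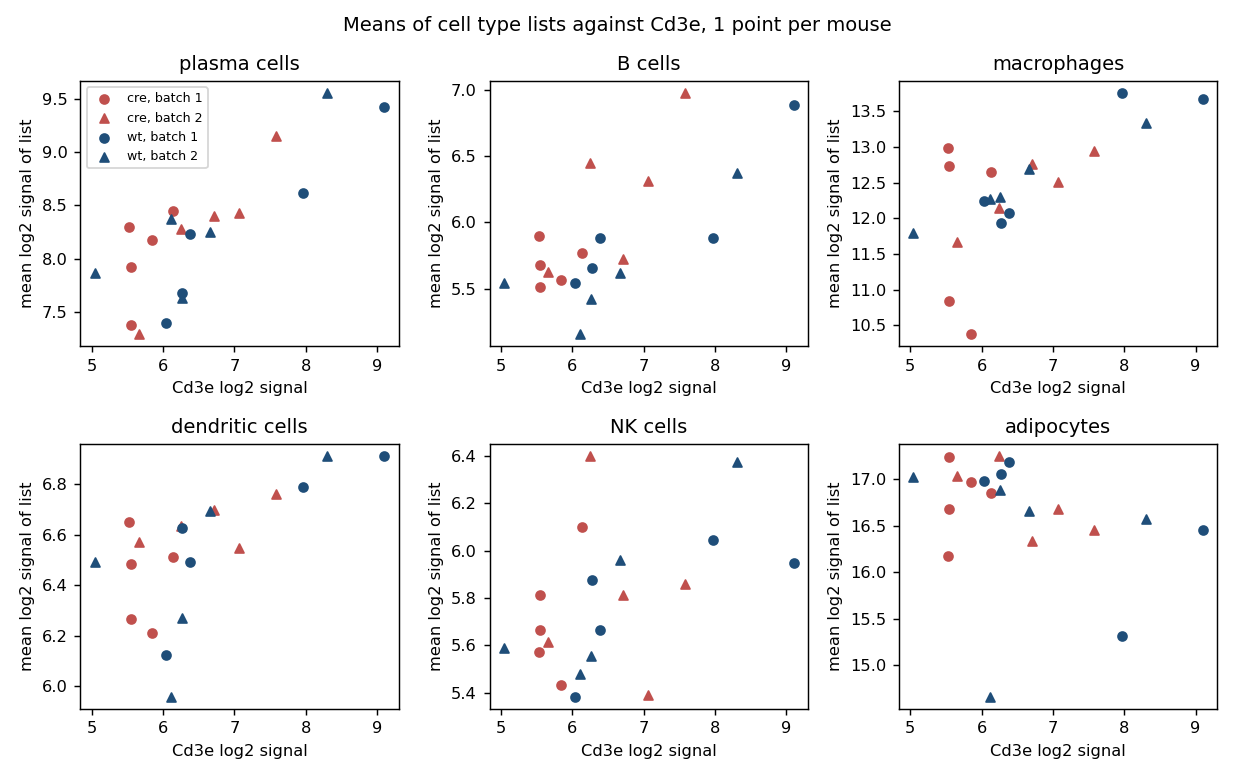
Mean log2 signal of 6 cell type lists against Cd3e, with a point for each of 20 mice, cre in red and wt in blue, circles for batch 1 and triangles for batch 2. The plasma cell means climb with Cd3e in both genotypes, the adipocyte means do not, and the mice at the right end carry much of the relation for B cells.

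The list means themselves overlapped between genotypes. The plasma cell mean ran from 7.30 (median 8.29) to 9.15 in cre mice and from 7.40 (median 8.24) to 9.55 in wt mice. The B cell mean ran from 5.52 (median 5.75) to 6.98 in cre mice and from 5.16 (median 5.64) to 6.89 in wt mice. The highest plasma cell means were in cre replicate 2 and in wt replicates 2 and 9, the same mice as for CD3. Of 8 plasma cell genes 4 were higher and 4 lower in cre mice, with Sdc1 at −0.61 (p = 0.0273) and Tnfrsf17, the receptor BCMA, at 0.31 (p = 0.0281). Of 9 B cell genes 7 were higher and 2 lower, with Fcer2a, which encodes CD23, at 0.32 (p = 0.063), Cd22 at 0.05 and Cd79a, a chain of the B cell receptor complex, at 0.29. Of 8 NK cell genes 5 were higher and 3 lower, with the receptors Klrk1 at 0.12, Ncr1 at 0.13 and Klrb1c at −0.37. Of 8 innate lymphoid and gamma delta T cell genes 5 were higher and 3 lower, with the transcription factors Zbtb16 at −0.49 and Rora at −0.0047 and the scavenger receptor Cd163l1 at 0.10. Of 11 dendritic cell genes 6 were higher and 5 lower, with Flt3, the receptor for their growth factor, at 0.59 (p = 0.00703). Of 15 macrophage genes 1 was higher and 14 lower, with the adaptors Tyrobp at −0.80 (p = 0.0465) and Fcer1g at −1.25 (p = 0.0358). All 9 adipocyte genes were higher in cre mice (median 0.35), and none reached an unadjusted p under 0.05. None of these genes passed adjustment over all probe sets.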

How the data were processed

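For whole epididymal fat pads of 20 mice, the authors deposited RMA log2 signals of probe sets. The submitters' processing notes name RMA, the mm10 build and Transcriptome Analysis Console 4.0.2.15. Whether batches were adjusted is not given in the sources used here. RMA makes array distributions alike, so a shift shared by most genes would be lost. No depth exists for arrays, and the number of mice limits the precision.

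Genotypes were compared as cre minus wt with limma 3.58.1 in R 4.3.3 (lmFit and eBayes, genotype and batch as terms), and p-values were adjusted after Benjamini and Hochberg over all 22206 probe sets. Separate fits, each with 1 term added, gave the interaction with batch, the slope on Adgre1 and the comparison at an equal mean of Cd3d, Cd3e and Cd3g. Their p-values were adjusted over the probe sets tested, 22205 for the slope and 22203 at equal CD3. Relations across mice used Pearson's r and Spearman's rho after removal of the means of genotype and batch, with 100000 two-sided permutations within them (SciPy 1.17.1, NumPy 2.4.6). Fits and permutations were tested on simulated data. Several other normalizations, covariates and subsets of mice were tried.

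The members and gene lists were chosen with earlier results of these data known. Of each list of T cell and other immune cell genes, genes with an unadjusted genotype p under 0.05 were named, otherwise the up to 3 with the highest mean. Genes of the adipocyte, sensory organ and other organ lists were not named. The 10 genes most like CD3 were ranked by r. Lists of other organs (seminal vesicle, epididymis, testis, liver, exocrine pancreas, prostate, bladder) served to find pads with other tissue. Their median differences were −1.06, 0.09, −0.07, 1.31, −0.13, 0.10 and 0.13, and none held a gene past adjustment. Same-numbered mice of the genotypes correlated over 0.1 in 4 of 10 pairs (−0.30 to 0.34), so the numbers were not treated as pairs.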

Additional observations from a re-analysis of the deposited data

How the results depend on the processing

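No T cell gene passed adjustment between genotypes under any alternative run: no batch term, each batch, a replicate block, another variance prior, a filter on dim probe sets, 2 normalizations, array weights, macrophage covariates, or mice left out. Of 627 recomputed values of single genes, 502 kept their direction and side of the threshold and 46 changed direction; the causes were not tested beyond the construction of each alternative. Averaging several probe sets was not run, since each gene had 1. The replicate block left 0 probe sets past adjustment, against 1, and changed no call of a T cell gene; same-numbered mice were not shown to be pairs.

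Batch 1 alone gave 2 T cell genes and 946 of 22206 probe sets in the study's selection (232 in all mice). For genotype it gave 0 probe sets past adjustment. For the slope on Adgre1 it gave 0 T cell genes past adjustment, 3 at an unadjusted p under 0.05, and −0.057 for Cd4 and −0.020 for Ctla4. At equal CD3, Cd4 was −0.28 and Il2rb −0.31 there. Batch 2 alone gave genotype differences of 0.14 for Cd3d, 0.17 for Cd3e, 0.27 for Cd3g, 0.29 for Cd4, 0.016 for Cd8b1 and 0.67 for Il2rb, with 0 probe sets past adjustment and 568 in the selection. Its slopes gave 0 T cell genes and 0 probe sets past adjustment, with 6 T cell genes unadjusted, and at equal CD3 Cd8a was −0.25.

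With Adgre1 as covariate, Cd3d was 0.0068 and 2 probe sets passed. With the macrophage list mean as covariate, Cd3d was 0.13, Cd3g 0.14, Cd8a 0.065 and Il2rb 0.17, and 2 probe sets passed. Without the mice with other tissue, 2 T cell genes and 627 of 22206 probe sets met the selection (232 in all mice), and 2 probe sets passed adjustment. Without the 3 mice highest in CD3, chosen after seeing the data, Cd3d was 0.25, Cd3g 0.063, Cd4 0.052, Cd8a 0.17 and Il2rb 0.17, and 1 T cell gene met the selection. The count of all probe sets in the selection is not given here for the fit without these mice. The slopes there were −0.019 for Cd4 and −0.24 for Ctla4, with 0 T cell genes past adjustment. A 2-fold limit left 22 probe sets in the selection.

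The slope in cre mice alone gave −0.14 for Cd4, −0.18 for Ctla4, 0 T cell genes past adjustment, 2 unadjusted and 1006 probe sets. In wt mice alone it gave 0 T cell genes, 3 unadjusted and 123 probe sets. For the slope within a batch or a genotype, the share of all probe sets at an unadjusted p under 0.05 was not counted. Without the 2 mice farthest from the Adgre1 median, 2 T cell genes and 684 probe sets passed, against 1959 in all mice, and with a trended robust prior 1 T cell gene did. With the macrophage list in place of Adgre1, 6 passed. Over the 11 alternatives of the slope, 0 to 2403 of all probe sets passed, against 1959 in the main fit. The 6 are not set against the count of their own fit. With Cd3e alone as the CD3 measure, Cd8b1 was 0.10.

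With single mice left out, the genotype difference ranged from −0.27 to 0.14 for Cd3d (above 0 without wt replicate 2 or 9), −0.11 to 0.013 for Cd4 (above 0 without cre replicate 1 or 3 or wt replicate 2) and −0.48 to 0.0095 for Il2rb (above 0 without wt replicate 9). The Ctla4 slope ranged from −0.072 to 0.15. At equal CD3, Cd4 ranged from −0.015 to 0.090, Cd8a from −0.013 to 0.15, Cd8b1 from −0.16 to 0.049 and Il2rb from −0.061 to 0.27. The T cell genes in the selection ranged from 0 to 1 and the probe sets from 180 to 451 (both highest without wt replicate 4), the probe sets past adjustment from 1 to 2. Past adjustment for the slope there were 0 to 4 T cell genes, and 1026 probe sets (without wt replicate 5) to 2703 (without wt replicate 6).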
